A study of Mus musculus with 22 samples.

Results

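The addition of anti-CTLA-4 to entinostat was examined in myeloid-derived suppressor cells of the granulocytic kind (G-MDSCs) from mouse mammary tumours. Of the 22 samples of the series, 16 came from mice that received entinostat, and these were the samples compared: the 8 whose names carry CTLA4 against the 8 whose names do not, with anti-PD-1 as a covariate, over all 655 endogenous genes of a NanoString nCounter mouse myeloid panel. The 8 samples with anti-CTLA-4 were 4 of entinostat plus anti-CTLA-4 (ENT + CTLA4) and 4 of entinostat plus both antibodies (ENT + PD1 + CTLA4), and the 8 without it were 4 of entinostat alone (ENT) and 4 of entinostat plus anti-PD-1 (ENT + PD1). The other 6 samples, from vehicle mice, are given only as a background level.

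All samples came from female FVB-Neu-N mice, whose transgene is the rat form of neu (HER2). At 7 to 8 weeks of age they were implanted in the mammary fat pad with 50000 NT2.5 cells, which descend from a mammary tumour that arose spontaneously. Treatment began after 3 days of seeding and ran for 3 weeks, with daily oral entinostat at 5 mg/kg in 0.5% methylcellulose and each antibody at 100 µg per mouse, injected 2 times a week into the peritoneum. Vehicle mice received methylcellulose and isotype antibodies. Every sample with anti-CTLA-4 therefore also carried entinostat, and no group had anti-CTLA-4 or anti-PD-1 without entinostat. The protocol mentions an anti-HER2 antibody for some studies, and whether these mice received it is not stated. Cells were selected for Ly6G and passed over a column 2 times. Nothing in the labels links a sample to an animal of its own, so each p-value speaks only to the spread among the samples, and that spread may be technical.

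CTLA-4 is an inhibitory receptor of T cells that competes with CD28 for the ligands CD80 and CD86 on antigen-presenting cells, and antibodies against it relieve that brake. G-MDSCs are immature neutrophil-like cells that accumulate in tumours, carry neutrophil granule and chemokine-receptor genes, respond to inflammatory signals through NF-kB, and restrain T cells through products of genes such as Arg1 and Ptgs2. Entinostat inhibits class I histone deacetylases, enzymes that remove acetyl groups from histones. CTLA-4 itself lies on T cells, and transcripts of Ctla4 and Pdcd1, which encodes PD-1, were not above background in these samples.

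Recovered barcode counts per sample ran from 23296 to 443796 with anti-CTLA-4 (median 237514) and from 107446 to 260310 without it (median 170285). The lowest was ENT + PD1 + CTLA4 sample 2, where a single barcode was worth 9.78 normalized counts. The column names fall into 2 sets, each with its own date and run code. They are taken here as 2 cartridges, a word that no label gives, so cartridge and date cannot be told apart. These sets nearly coincide with the comparison. Cartridge 2 held 7 of the 8 samples with anti-CTLA-4 and 0 of the 8 without it. Cartridge 1 held the remaining sample, ENT + PD1 + CTLA4 sample a, and all 8 without. There were 2 column names that were used for 2 columns each, and those columns are called samples a and b of ENT + CTLA4 and of ENT + PD1 + CTLA4. ENT + CTLA4 sample a stood apart from the other 3 of its group, with levels near those of samples without anti-CTLA-4, and results are given with and without it where it matters. Neutrophil genes were abundant in these cells (S100a9 reached 24140 normalized counts), but Ly6g, on which the cells were selected, was not above background, and 5 pan-leukocyte genes and 4 epithelial markers were above it in the mean.

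For each gene a linear model in limma was fitted to log2(normalized count + 1), and a gene was tested when its mean over the 16 samples lay above a limit of 35.3 normalized counts set by the negative controls. This left 357 genes tested and 298 not tested. A gene is called when its two-sided Benjamini-Hochberg adjusted p over the 357 genes is under 0.05. Log2 fold changes are differences on that scale, with anti-CTLA-4 minus without, given ± SE, the standard error of the fit, and every adjusted p is from limma unless another tool is named.

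With anti-CTLA-4, neutrophil, inflammatory, chemokine-receptor and pan-leukocyte transcripts were lower, and a small set of genes was slightly higher. Of the 357 genes tested, 124 were called (34.7%). Of these, 113 were lower with anti-CTLA-4 (31.7% of genes tested) and 11 were higher (3.08%). The median log2 fold change was -1.18 over the lower genes and 0.39 over the higher genes, beside -0.29 over all genes tested. All 124 had the same sign in both pairs of groups, with and without anti-PD-1, beside 243 of all 357 genes tested. The main effect is the average of these pairs, so genes called for it tend to share a sign by selection. Their shared sign is therefore no separate test, and the pair with anti-PD-1 by itself gave 0 called genes. In 30 genes (8.4%) all 8 samples with anti-CTLA-4 lay below all 8 without, and in 0 genes did all 8 lie above. Anti-PD-1 itself, the covariate of the fit, gave 0 called genes, with 6 at an unadjusted p under 0.05.

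The call depends on the cartridge and on the scale. With the cartridge as a block, limma called 0 genes for the main effect in the 16 samples, with 63 at an unadjusted p under 0.05. When the 6 vehicle samples, split 3 and 3, were added, it again called 0, with 105 at an unadjusted p under 0.05. The median over the 113 lower genes was -1.31 and -1.10. For ENT + CTLA4 against ENT, these block fits still called 139 and 118 genes, against 176 without the block. In the 16 samples the block rests on ENT + PD1 + CTLA4 sample a, the only one with anti-CTLA-4 on cartridge 1. Within cartridge 1, where ENT + PD1 + CTLA4 sample a stands against the 8 samples without anti-CTLA-4, 123 of the 124 genes kept their sign, 75 genes were lower (21% of genes tested) and 0 higher, with the spread of the lone sample taken from the others. The 75 were counted over all genes tested, and not all of them are among the 124. Of genes featured below, S100a9, S100a8, Ptgs2, Selplg, Ikzf1, Ccl3 and Ccl4 kept their sign there but were not called. Others, such as Il1b, Hdc and Ptprc, were called. A lone sample shows no spread of its own, so that fit cannot decide which genes differ. The deposited values hold the housekeeping genes nearly level. When samples were centred on their median instead, 156 genes were called and 57.7% of them were lower, against 91.1% as deposited. Quantile normalization gave 49.4% lower of 164 called, edgeR with TMM factors 47.2% of 178, and DESeq2 48% of 200. These 4 scalings put the median of all genes tested between 0.05 and 0.13, in place of -0.29, and most list medians below are given under them too.

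The pan-leukocyte genes, expressed by all white blood cells, fell with the rest, and their level is the measure that the other lists are set beside. All 5 tested genes of that list were lower, beside 31.7% of all genes tested. The list median was -1.30, between -0.92 and -0.82 under the 4 other scalings. Within cartridge 1, with its 1 sample with anti-CTLA-4, the list median was -1.24. Ptprc encodes CD45, the phosphatase on the surface of all leukocytes. It stood at 620.4 (sample a), 155 (b), 136 (1) and 224 (3) normalized counts in ENT + CTLA4 and at 446 (a), 643 (b), 635 (2) and 657 (4) in ENT + PD1 + CTLA4, against 905, 1054, 1086 and 816 in ENT samples 1 to 4 and 809.8, 825, 796 and 958 in ENT + PD1 samples 1 to 4. All 8 samples with anti-CTLA-4 were below all 8 without, and samples b, 1 and 3 of ENT + CTLA4 were the lowest. The log2 fold change was -1.28 ± 0.31 (SE, limma adjusted p = 0.00679). Laptm5, a lysosomal membrane protein of blood cells, changed by -1.30 ± 0.30 (adjusted p = 0.00679), and Ikzf1, which encodes the lymphoid and myeloid transcription factor Ikaros, by -1.42 ± 0.35 (adjusted p = 0.00708). In a bulk sample, fewer cells of a type and less RNA per cell cannot be told apart.

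Summed over the list, the 5 pan-leukocyte genes gave 391 to 1852 normalized counts with anti-CTLA-4 and 2102 to 3066 without it, with no overlap. Vehicle samples gave 514 to 2256, with a median of 760 and the highest value in vehicle sample 2. The 4 tested epithelial markers gave 1643 to 2607 with anti-CTLA-4 and 1548 to 1917 without, which overlap, and 1764 to 2490 in vehicle. When each sample was centred on its mean log2 level of the 5 pan-leukocyte genes, an alternative added after the data had been seen, 0 genes were lower with anti-CTLA-4 and 240 were higher (limma, 251 at an unadjusted p under 0.05). With the mean of the epithelial markers as a covariate, also added later, 0 genes were called, 64 had an unadjusted p under 0.05, and the median over the 113 lower genes was -0.39.

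**Figure D1:**
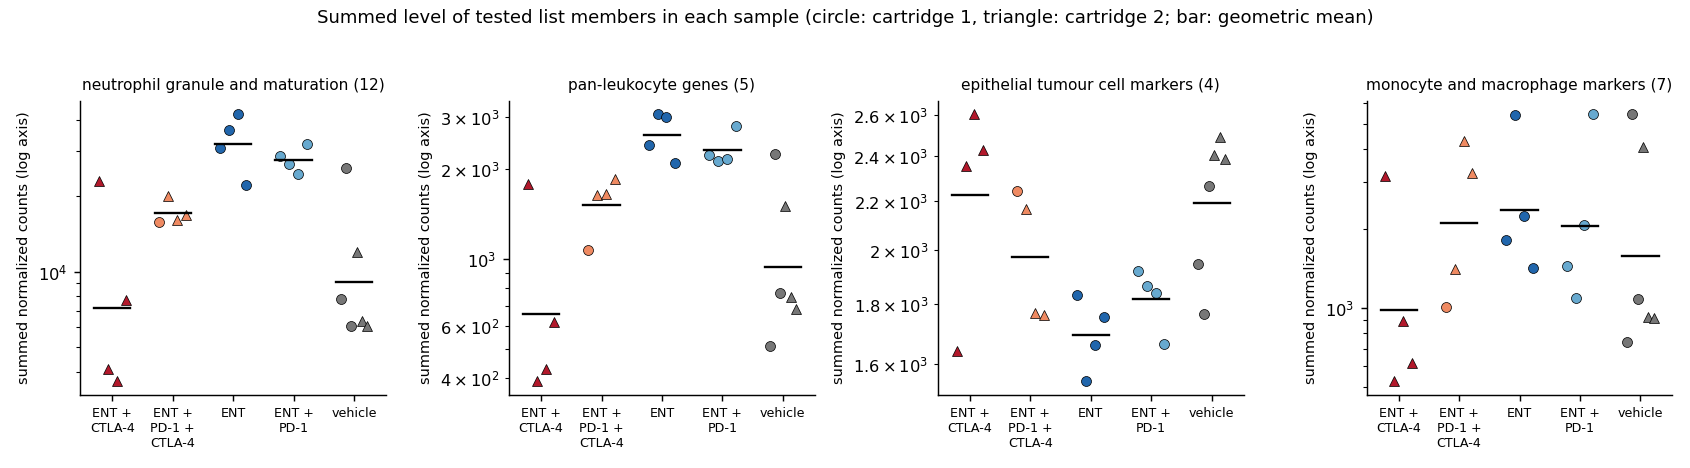
Summed normalized counts (log axis) of the tested members of 4 gene lists in each sample, by group, with circles for cartridge 1, triangles for cartridge 2 and a bar at the geometric mean. The pan-leukocyte sums with anti-CTLA-4 (391 to 1852) lie below those of the entinostat samples without it (2102 to 3066), and the epithelial sums (1643 to 2607) overlap with them (1548 to 1917).

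Neutrophil genes fell with anti-CTLA-4. Of 12 tested genes of neutrophil granules and maturation, 11 were lower, beside 31.7% of all genes tested, and 0 higher. Their median was -1.33, between -0.95 and -0.78 under the 4 other scalings and -0.01 relative to the pan-leukocyte genes. The other 6 members on the panel, Camp, Elane, Fpr1, Ly6g, Mmp8 and Mpo, were not above background and not tested, so the counts do not cover them. Within cartridge 1, with its 1 sample with anti-CTLA-4, the list median was -0.85. S100a9 encodes a subunit of calprotectin, the calcium-binding protein that fills the neutrophil cytosol. It stood at 12460 (sample a), 1959 (b), 2107 (1) and 4309 (3) normalized counts in ENT + CTLA4 and at 8842 (a), 11476 (b), 8271 (2) and 9362 (4) in ENT + PD1 + CTLA4. It stood at 17414, 20641, 24140 and 12065 in ENT samples 1 to 4 and at 16171, 14942, 13679 and 18314 in ENT + PD1 samples 1 to 4. The arms overlapped in only 1 sample of each, ENT + CTLA4 sample a and ENT sample 4, and samples b and 1 of ENT + CTLA4 were below the lowest of the 6 vehicle samples (3347, with a vehicle median of 4025). The log2 fold change was -1.48 ± 0.36 (adjusted p = 0.00679), a level 2.79-fold lower, and -0.75 after quantile normalization, where it was not called (adjusted p = 0.0759). Its partner S100a8 changed by -1.40 ± 0.35 (adjusted p = 0.00797).

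Hdc, the histidine decarboxylase that makes histamine, had the largest decrease of the genes called. It ran from 43.2 to 316 normalized counts with anti-CTLA-4 (median 173) and from 308 to 566 without (median 421), and changed by -1.67 ± 0.38 (adjusted p = 0.0057). Fpr2, a formyl-peptide receptor that guides neutrophils to bacterial products, ran from 23.6 to 202 with anti-CTLA-4 (median 97.3) and from 168 to 311 without (median 229), and changed by -1.63 ± 0.37 (adjusted p = 0.00625). Csf3r, the receptor for the granulocyte growth factor G-CSF, did not overlap between the arms, at 124 to 616 with anti-CTLA-4 (median 391) and 706 to 1013 without (median 789). It changed by -1.28 ± 0.30 (adjusted p = 0.00679). The exception in the list was Ceacam1, an adhesion molecule, which was not called.

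**Figure D2:**
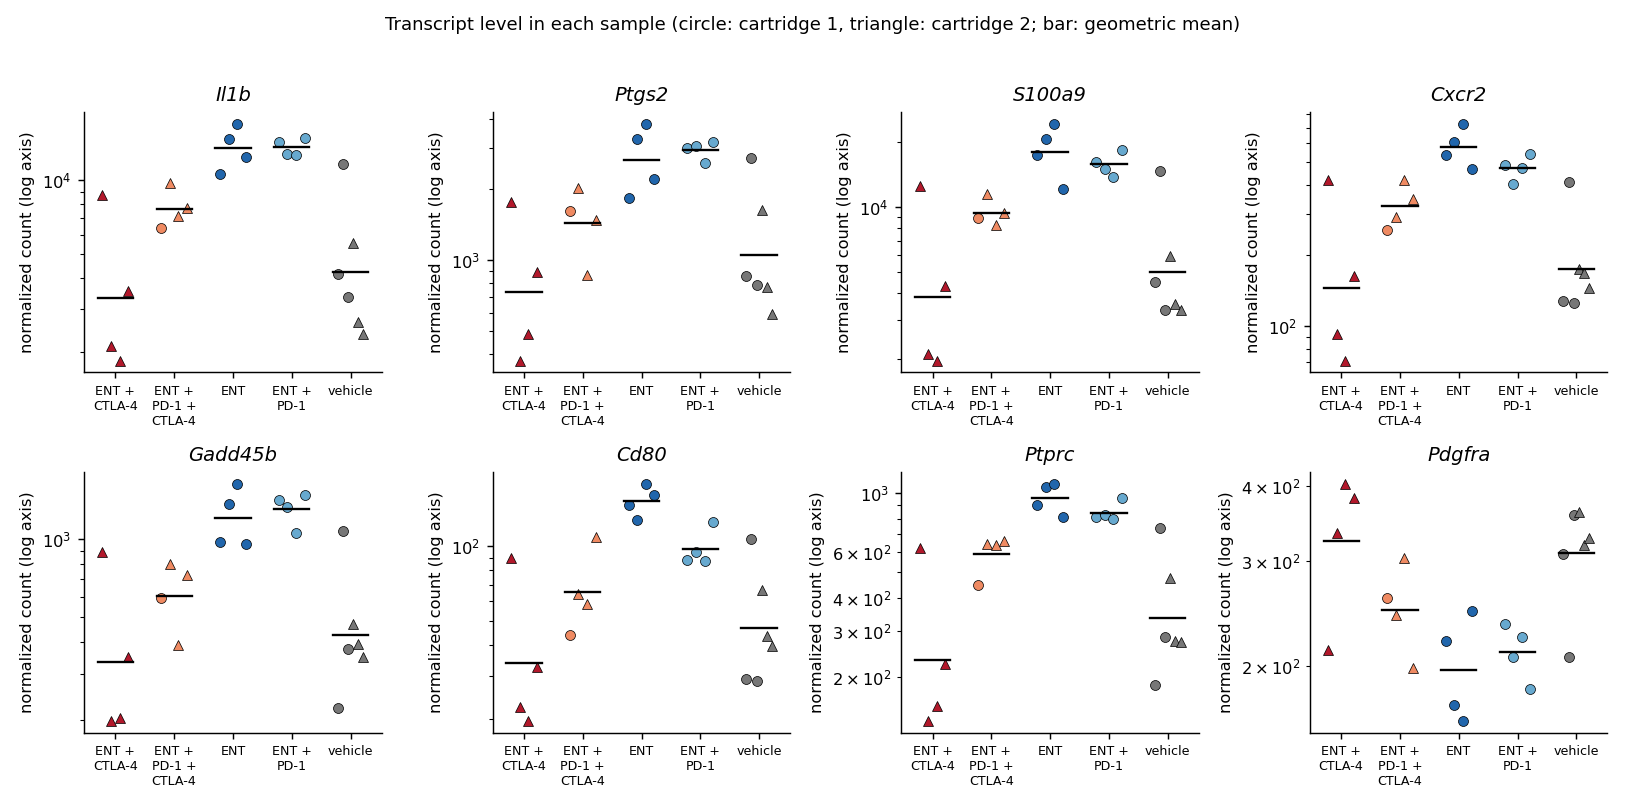
Normalized counts (log axis) of 8 genes in each sample, by group, with circles for cartridge 1, triangles for cartridge 2 and a bar at the geometric mean. In Il1b, Gadd45b and Ptprc all 8 samples with anti-CTLA-4 lie below the 8 entinostat samples without it, ENT + CTLA4 sample a lies above the other 3 of its group in the 7 genes that fell, and Pdgfra runs the other way.

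The receptors that steer and arrest neutrophils fell with them. Of 12 tested chemokine receptors and adhesion molecules, 11 were lower, beside 31.7% of all genes tested, and 0 higher. Their median was -1.27, between -0.89 and -0.81 under the 4 other scalings and 0.04 relative to the pan-leukocyte genes. Some of these genes also stand in the neutrophil and pan-leukocyte lists. Cxcr2, the receptor for the neutrophil-attracting CXC chemokines, ran from 71.3 to 420.4 normalized counts with anti-CTLA-4 (median 274) and from 401 to 726 without (median 510.0), with a log2 fold change of -1.26 ± 0.33 (adjusted p = 0.00935). Cxcr4, which retains neutrophils in the bone marrow, ran from 194 to 905 with anti-CTLA-4 and from 979.5 to 1669 without, with no overlap. Its log2 fold change was -1.30 ± 0.28 (adjusted p = 0.00479). Selplg, the ligand through which leukocytes roll on P-selectin, changed by -1.38 ± 0.30 (adjusted p = 0.00479), again with no overlap. Ccrl2, a chemerin-binding receptor that does not signal by itself, changed by -1.41 ± 0.30 (adjusted p = 0.00452).

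NF-kB and TNF-induced genes fell as a broad set. Of 19 tested genes, 17 were lower, beside 31.7% of all genes tested, and 0 higher. Their median was -1.31, between -0.93 and -0.82 under the 4 other scalings and 0.01 relative to the pan-leukocyte genes. Within cartridge 1, with its 1 sample with anti-CTLA-4, the list median was -1.37. Il1b encodes the inflammatory cytokine interleukin-1 beta. It stood at 8746 (sample a), 1850 (b), 2123 (1) and 3539 (3) normalized counts in ENT + CTLA4 and at 6370 (a), 9785 (b), 7157 (2) and 7711 (4) in ENT + PD1 + CTLA4. It stood at 10650, 14776, 16955 and 12378 in ENT samples 1 to 4 and at 14356, 12768, 12632 and 14897 in ENT + PD1 samples 1 to 4. All 8 samples with anti-CTLA-4 were below all 8 without, and the 6 vehicle samples ran from 2369 to 11618. Summed over the list, vehicle sample 2 stood at 38619 normalized counts and the other vehicle samples at 10686 to 18897. The log2 fold change was -1.43 ± 0.29 (adjusted p = 0.00422), a level 2.69-fold lower.

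Other members followed, with the signal's feedback inhibitor among them. Ccl3 and Ccl4 encode chemokines that attract monocytes and T cells. Ccl4 changed by -1.20 ± 0.26 (adjusted p = 0.00479) and Ccl3 by -1.32 ± 0.33 (adjusted p = 0.00717). They were the 2 members lower among the 5 tested CC chemokines, a share near the 31.7% of all genes tested, and 0 were higher (list median -0.98, between -0.59 and -0.36 under the 4 other scalings and 0.34 relative to the pan-leukocyte genes). Nfkbia, chosen like Cxcl1, Cxcl2 and Cxcl3 after values were seen, encodes the inhibitor IkB-alpha that NF-kB induces against itself. It ran from 762 to 2377 with anti-CTLA-4 (median 1308) and from 2181 to 3162 without (median 2716), with a log2 fold change of -1.01 ± 0.22 (adjusted p = 0.00539). The neutrophil chemokines changed by -0.77 ± 0.26 for Cxcl1 (adjusted p = 0.0312), -1.40 ± 0.34 for Cxcl2 (adjusted p = 0.00679) and -1.31 ± 0.37 for Cxcl3 (adjusted p = 0.0121). Cxcl1 was called in 9 of 16 fits that each left out 1 sample, and in none of the 4 other scalings, where it stood at -0.38 after median centring (adjusted p = 0.0819) and -0.36 after quantile normalization (adjusted p = 0.125). Cxcl3 stood at 14.4 to 19.1 normalized counts in 3 of the 4 ENT + CTLA4 samples, below the limit of 35.3, so its fold change is imprecise. The 2 members not called, also named after their values were seen, were the cytokine gene Il6, at -1.63 ± 0.66 (adjusted p = 0.0678) with a wide spread in both arms, and Nfkb1, the gene of the NF-kB subunit p50, at -0.15 ± 0.15 (adjusted p = 0.426).

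The promoters of 4 of these genes are shown because they were called lower as deposited and hold a full match to an NF-kB motif. Il6, also of this list, holds a match too but was not called, so the 4 were chosen on the outcome. The motif searched was GGGA, then any base, then TTTCC, on both strands, in the RefSeq window of 250 bases before to 50 after each start in build GRCm38.p6. It was present in 126 of 27025 genes of the promoter table (0.466%), in 6 of the 92 lower genes with a promoter there (6.52%), in 5 of the 171 other tested genes with a promoter (2.92%), and in 5 of 16 genes of the NF-kB list. The panel is rich in immune genes, and no test of these shares was made. Each line gives the 150 bases before the start, 5′ to 3′ on the gene's strand, with the match in capitals.
Cxcl1, chr5:90891095-90891244, plus strand: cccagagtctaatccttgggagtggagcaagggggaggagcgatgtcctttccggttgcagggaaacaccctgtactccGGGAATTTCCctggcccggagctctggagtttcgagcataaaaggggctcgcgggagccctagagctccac
Cxcl2, chr5:90903749-90903898, plus strand: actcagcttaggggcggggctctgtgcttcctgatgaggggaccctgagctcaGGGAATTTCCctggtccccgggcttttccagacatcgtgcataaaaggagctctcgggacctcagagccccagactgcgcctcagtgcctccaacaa
Cxcl3, chr5:90785951-90786100, plus strand: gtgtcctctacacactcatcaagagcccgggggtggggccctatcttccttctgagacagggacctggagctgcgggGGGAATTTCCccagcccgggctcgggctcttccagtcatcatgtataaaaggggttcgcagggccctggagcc
Nfkbia, chr12:55492648-55492797, minus strand: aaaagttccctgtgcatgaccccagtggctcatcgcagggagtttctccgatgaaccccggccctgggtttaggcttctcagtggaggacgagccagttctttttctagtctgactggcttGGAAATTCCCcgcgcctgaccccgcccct
The match begins 71 bases before the start in Cxcl1, 97 in Cxcl2 and 73 in Cxcl3, where it reads along the gene's strand, and 29 in Nfkbia, where it reads on the opposite strand. A match is a description of the letters and not a measurement of binding.

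Genes of the suppressive programme of myeloid cells moved less evenly. Of 11 tested, 7 were lower, beside 31.7% of all genes tested, and 0 higher. Their median was -0.59, between -0.28 and -0.14 under the 4 other scalings and 0.73 relative to the pan-leukocyte genes. Ptgs2, the inducible cyclooxygenase that makes prostaglandins, stood at 1770 (sample a), 487 (b), 376 (1) and 896 (3) normalized counts in ENT + CTLA4 and at 1626 (a), 2036 (b), 870.1 (2) and 1488 (4) in ENT + PD1 + CTLA4. It stood at 1832, 3286, 3800 and 2224 in ENT samples 1 to 4 and at 3012, 3067, 2587 and 3177 in ENT + PD1 samples 1 to 4. ENT + PD1 + CTLA4 sample b lay above ENT sample 1, and the other samples with anti-CTLA-4 lay below all 8 without. The log2 fold change was -1.45 ± 0.30 (adjusted p = 0.00422), a level 2.73-fold lower.

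Cebpb, the transcription factor of emergency granulopoiesis, ran from 869 to 1879 with anti-CTLA-4 and from 1943 to 2836 without, with no overlap, and changed by -0.76 ± 0.16 (adjusted p = 0.00422). Vegfa, the angiogenic growth factor, changed by -0.59 ± 0.15 (adjusted p = 0.00889), and the hypoxia-response factor gene Hif1a by -0.45 ± 0.12 (adjusted p = 0.00935). Neither was called under any of the 4 other scalings: Vegfa stood at -0.20 after median centring (adjusted p = 0.191) and -0.14 after quantile normalization (adjusted p = 0.363), and Hif1a at -0.06 after median centring (adjusted p = 0.62). Both genes of the short hypoxia list were lower as deposited, beside 31.7% of all genes tested. Their median was -0.52, between -0.18 and -0.03 under the 4 other scalings and 0.80 relative to the pan-leukocyte genes. After quantile normalization Hif1a stood at 0.08. Tgfb1, the gene of the suppressive cytokine TGF-beta 1, changed by -0.42 ± 0.16 (adjusted p = 0.0458), and the transcription factor gene Stat3 by -0.24 ± 0.09 (adjusted p = 0.0373). Stat3 changed sign under all 4 other scalings, to between 0.09 and 0.24, and Tgfb1 stood at 0.02 after quantile normalization. Neither was called under the 4 other scalings, and leaving out 1 sample at a time kept the call in 7 of 16 fits for Stat3 and 6 of 16 for Tgfb1. Arginase 1, the enzyme that depletes arginine around T cells, was not called, with Arg1 at 22 to 78.2 normalized counts with anti-CTLA-4 and 23.4 to 147 without (-0.39 ± 0.37, adjusted p = 0.411, 95% interval -1.17 to 0.39). Cybb, the catalytic subunit of the NADPH oxidase, was not called either (-0.77 ± 0.48, adjusted p = 0.22, 95% interval -1.79 to 0.25).

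Ligands of the receptors that the antibodies block were of interest because Cd80 and Cd86 encode the partners of CTLA-4 and Cd274 encodes PD-L1, the partner of PD-1. Of 6 tested ligands and partners of checkpoint receptors, 2 were lower, a share near the 31.7% of all genes tested, and 0 higher, with a list median of -1.04, between -0.66 and -0.50 under the 4 other scalings and 0.28 relative to the pan-leukocyte genes. Cd80 stood at 90.1 (sample a), 19.7 (b), 22.4 (1) and 32.5 (3) normalized counts in ENT + CTLA4 and at 43.9 (a), 64.2 (b), 58.7 (2) and 109.5 (4) in ENT + PD1 + CTLA4. It stood at 147, 128, 179 and 162 in ENT samples 1 to 4 and at 88.3, 94.9, 87.3 and 125 in ENT + PD1 samples 1 to 4. ENT + CTLA4 and ENT did not overlap, while the groups with anti-PD-1 did through ENT + PD1 + CTLA4 sample 4. The log2 fold change was -1.36 ± 0.33 (adjusted p = 0.00702). Several of these levels lie near or below the background limit of 35.3, so the fold change is imprecise at the low end.

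Icosl, the ligand of the costimulatory receptor ICOS, was the other gene called, at -1.41 ± 0.38 (adjusted p = 0.0104). It stood at 15.1 to 26.4 normalized counts in 3 of the 4 ENT + CTLA4 samples, below the limit of 35.3, so its fold change is imprecise too. Cd86 ran from 9.86 to 137 with anti-CTLA-4 and from 47.9 to 107 without, and its change of -1.05 ± 0.45 was not called (adjusted p = 0.0816). Cd274 ran from 35.2 to 782 with anti-CTLA-4 (median 144) and from 196 to 438 without (median 318). It had its highest value of the 16 samples in ENT + PD1 + CTLA4 sample 2, and its change of -1.03 ± 0.52 was not called (adjusted p = 0.14, 95% interval -2.14 to 0.08). Within cartridge 1, with its 1 sample with anti-CTLA-4, Cd274 stood at -1.77. Without ENT + PD1 + CTLA4 sample 2 it stood at -1.34 and was called, which it was in 1 of the 16 fits that left out a sample.

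Receptors for antibody Fc parts and their ITAM-based signalling partners fell in most cases. Of 8 tested, 6 were lower, beside 31.7% of all genes tested, and 0 higher. Their median was -1.27, between -0.88 and -0.79 under the 4 other scalings and 0.05 relative to the pan-leukocyte genes. Vav1, a member of this list, is also 1 of the 5 pan-leukocyte genes. Tyrobp, the ITAM adaptor DAP12, ran from 219 to 1337 with anti-CTLA-4 (median 835) and from 1239 to 2038 without (median 1668), and changed by -1.40 ± 0.34 (adjusted p = 0.00708). Fcgr3, a low-affinity activating Fc receptor, changed by -1.23 ± 0.29 (adjusted p = 0.00679), and Vav1, an exchange factor that acts downstream of ITAM receptors, by -1.32 ± 0.33 (adjusted p = 0.00737). Fcgr4, the Fc receptor of mouse neutrophils and monocytes, ran from 21.2 to 176 with anti-CTLA-4 and from 87.6 to 144 without, overlapping widely, and changed by -0.97 ± 0.33 (adjusted p = 0.0317). It was called in 7 of 16 fits that left out 1 sample, and not called after quantile normalization (-0.46, adjusted p = 0.0522), in edgeR with TMM factors (adjusted p = 0.0507) or without a filter (limma adjusted p = 0.0634).

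Of 6 tested Toll-like receptors and adaptors, which recognise microbial products, 2 were lower, a share near the 31.7% of all genes tested, and 0 higher (list median -0.69, between -0.37 and -0.26 under the 4 other scalings and 0.63 relative to the pan-leukocyte genes). Tlr6, the partner of TLR2 for bacterial lipopeptides, ran from 19.6 to 65.9 with anti-CTLA-4 and from 76.5 to 101 without, with no overlap, and changed by -1.12 ± 0.22 (adjusted p = 0.00422). Myd88, the adaptor of most Toll-like receptors, changed by -0.97 ± 0.25 (adjusted p = 0.00935). Outside that list, Tlr13, a mouse receptor for bacterial ribosomal RNA, did not overlap between the arms and changed by -1.44 ± 0.30 (adjusted p = 0.00422).

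The remaining large decreases were in genes of activated myeloid cells and stress responses. Acod1, the enzyme that makes itaconate, changed by -1.55 ± 0.44 (adjusted p = 0.0126), with ENT + CTLA4 sample a at 483, in the range of the samples without anti-CTLA-4 (332 to 609). Ell2, a transcription elongation factor, changed by -1.51 ± 0.31 (adjusted p = 0.00422), and Clec5a, a myeloid C-type lectin, by -1.43 ± 0.37 (adjusted p = 0.00857). Gadd45b, a stress-response gene that NF-kB induces, stood at 892 (sample a), 203 (b), 198 (1) and 351 (3) normalized counts in ENT + CTLA4 and at 594 (a), 799.8 (b), 391 (2) and 725 (4) in ENT + PD1 + CTLA4, against 978, 1369, 1639 and 962 in ENT samples 1 to 4 and 1423, 1334, 1057 and 1493 in ENT + PD1 samples 1 to 4. The arms did not overlap, and its change was -1.48 ± 0.29 (adjusted p = 0.00422).

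Antigen-loading genes moved little as deposited, while all 4 tested interferon-response genes had negative estimates. Of these 4, 1 was called lower, a share near the 31.7% of all genes tested, and 0 higher. Their list median was -0.52, between -0.20 and -0.05 under the 4 other scalings and 0.79 relative to the pan-leukocyte genes. Isg15 stood at -0.60 (adjusted p = 0.0678) and Irf1 at -0.58 (adjusted p = 0.0561), and neither was called. The gene called was Ifngr1, a chain of the interferon-gamma receptor, at -0.46 ± 0.14 (adjusted p = 0.0212). It was not called under any of the 4 other scalings, at -0.08 after median centring (adjusted p = 0.544) and -0.01 after quantile normalization (adjusted p = 0.918). Of 6 tested genes of MHC class I peptide loading, 0 were called in either direction, beside 34.7% of all genes tested. Fold changes ran from -0.23 to 0.16, with a median of 0.08. That median was 0.40 to 0.53 under the 4 other scalings and 1.39 relative to the pan-leukocyte genes. All 3 tested genes of mitosis and replication were likewise not called (median 0.22, between 0.59 and 0.65 under the 4 other scalings and 1.53 relative to the pan-leukocyte genes).

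**Figure D3:**
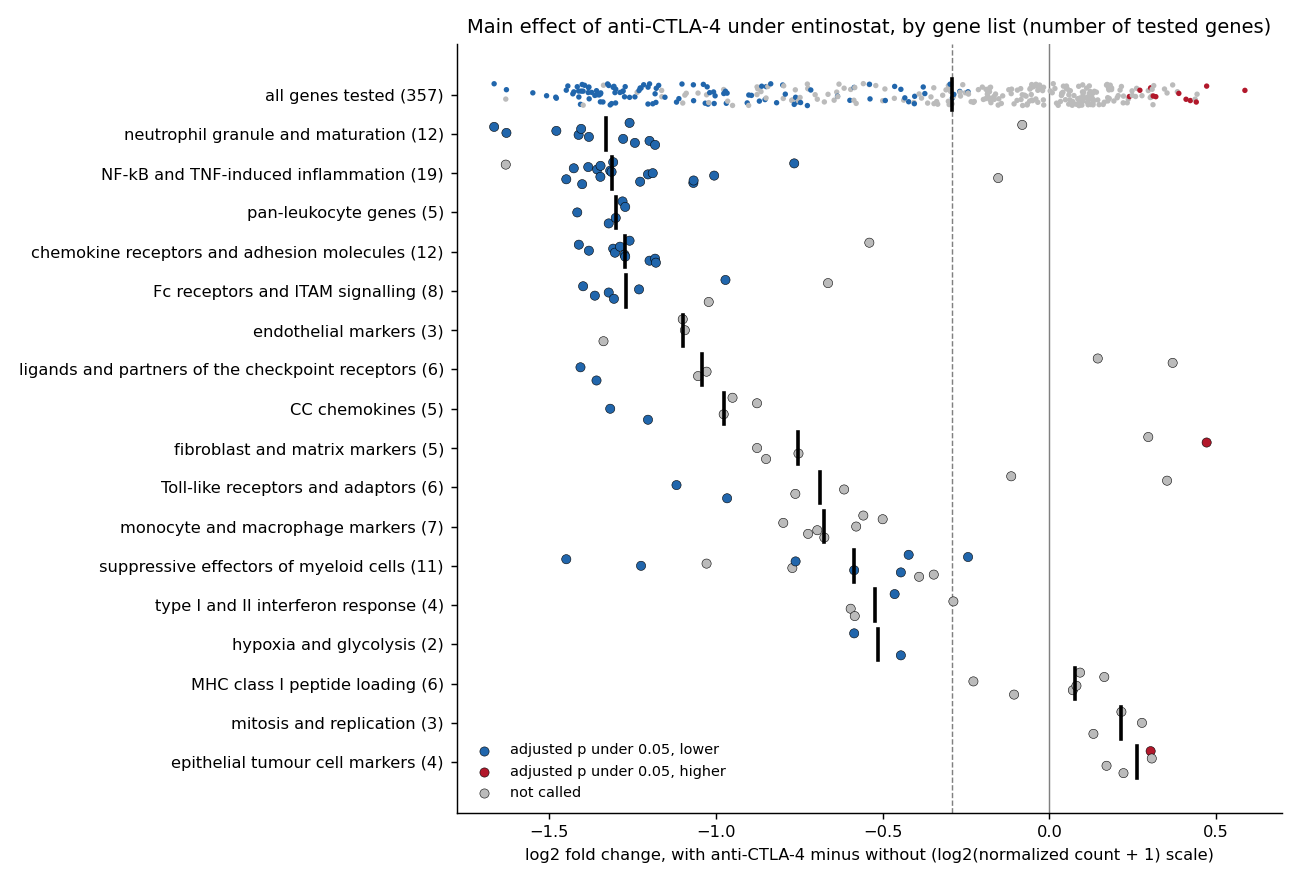
Log2 fold change with anti-CTLA-4 minus without (horizontal axis, log2(normalized count + 1) scale) of each tested gene, by list, with list medians as black bars and the median of all 357 genes (-0.29) as a dashed line. Genes called lower are blue, higher red and not called grey. Neutrophil, NF-kB and pan-leukocyte lists have medians of -1.33, -1.31 and -1.30, and relative to the pan-leukocyte genes the neutrophil and NF-kB medians are -0.01 and 0.01.

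Markers of other cell types gave few calls. Of 7 tested monocyte and macrophage markers, 0 were called, beside 34.7% of all genes tested. Their median was -0.67, between -0.38 and -0.17 under the 4 other scalings and 0.64 relative to the pan-leukocyte genes. Adgre1, which encodes the macrophage antigen F4/80, stood at -0.80 ± 0.42 (adjusted p = 0.154), and Csf1r, the receptor for the macrophage growth factor M-CSF, at -0.56 ± 0.30 (adjusted p = 0.167). The summed level of the 7 markers ran from 526 to 4302 with anti-CTLA-4 and from 1089 to 5441 without. None of the 6 dendritic-cell markers or 4 T, B and NK cell markers on the panel was above background in the mean. The 3 tested endothelial markers were low, with sums of 20.9 to 420.4 with anti-CTLA-4 and 126.6 to 668 without, and a median of -1.10, between -0.72 and -0.45 under the 4 other scalings and 0.22 relative to the pan-leukocyte genes. Cdh5, the VE-cadherin of endothelial junctions, stood at -1.09 ± 0.59 (adjusted p = 0.165). The part of other cell types in the results was not tested. The pan-leukocyte centring above cannot test it, because it moves every estimate by the same amount. Nor can the epithelial covariate, because its mean log2 level itself differs between the arms (8.67 with anti-CTLA-4, 8.42 without).

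The 11 genes that rose did so by 0.59 or less. They stayed called under the 4 other scalings, where their median was 0.74 to 0.77. With the cartridge as a block, 0 of the 11 were called. Within cartridge 1, with its 1 sample with anti-CTLA-4, their median was 0.31. Pdgfra, a growth factor receptor of fibroblasts, stood at 213 (sample a), 403 (b), 333 (1) and 382 (3) normalized counts in ENT + CTLA4 and at 259.6 (a), 243 (b), 303 (2) and 198 (4) in ENT + PD1 + CTLA4. It stood at 219.7, 172, 162 and 247 in ENT samples 1 to 4 and at 235, 207, 223 and 183 in ENT + PD1 samples 1 to 4. The arms overlapped, and vehicle samples ran from 207 to 362. The log2 fold change was 0.47 ± 0.16 (adjusted p = 0.0291), a level 1.39-fold higher. It was the only gene called of 5 tested fibroblast and matrix markers, beside 3.08% of all genes tested called higher and 31.7% lower. The median of these markers was -0.75 (between -0.37 and -0.27 under the 4 other scalings and 0.57 relative to the pan-leukocyte genes).

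Nox4, an NADPH oxidase of non-immune tissues, changed by 0.59 ± 0.20 (adjusted p = 0.0309). It ran from 36.9 to 95.1 normalized counts with anti-CTLA-4 and from 28.2 to 59.5 without. Ptprk, a receptor phosphatase of epithelia, changed by 0.30 ± 0.11 (adjusted p = 0.0397). It was the only gene called of 4 tested epithelial markers, beside 3.08% of all genes tested called higher. The median of these markers was 0.26, between 0.61 and 0.66 under the 4 other scalings and 1.58 relative to the pan-leukocyte genes. Cdh1, which encodes the epithelial adhesion molecule E-cadherin, stood at 0.31 ± 0.12 (adjusted p = 0.0601), and Yap1, a co-activator of the Hippo pathway, at 0.22 ± 0.09 (adjusted p = 0.0693). Both were called higher under the 4 other scalings. Leaving out 1 sample at a time kept the call in 10 of 16 fits for Pdgfra, 9 for Nox4 and 6 for Ptprk.

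The smallest p among the genes that rose was that of Rab3d, a GTPase of secretory vesicles, at 0.41 ± 0.10 (adjusted p = 0.00679). It ran from 94.7 to 138 normalized counts with anti-CTLA-4 and from 72.1 to 97.9 without. Ccnb2, a mitotic cyclin, changed by 0.39 ± 0.10 (adjusted p = 0.00854), and Gata3, a transcription factor of luminal mammary cells and of T cells, by 0.31 ± 0.09 (adjusted p = 0.0112). Of the 11, Gata3 was the gene whose change was larger in the pair with anti-PD-1 (0.47 ± 0.11) than in the pair without it (0.15 ± 0.11). Fzd6, a Wnt receptor, changed by 0.42 ± 0.13 (adjusted p = 0.0182), and Dusp6, a phosphatase of the ERK kinases, by 0.32 ± 0.10 (adjusted p = 0.0183). Fyn, a kinase of the Src family named after its values were seen, changed by 0.24 ± 0.08 (adjusted p = 0.0366), and was called in 6 of 16 fits that left out 1 sample.

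The main effect averages 2 pairs, which were also fitted apart. In ENT + PD1 + CTLA4 against ENT + PD1, 0 genes were called by limma, and 43 had an unadjusted p under 0.05. In ENT + CTLA4 against ENT, 176 genes were called, 152 lower (42.6%) and 24 higher (6.72%). The test of the difference between the pairs called 0 genes, with 75 at an unadjusted p under 0.05, so the pairs were not shown to differ in these 16 samples. That count rests on ENT + CTLA4 sample a. Without it the difference was called in 165 genes and the pair with anti-PD-1 in 36, and without it and ENT + PD1 + CTLA4 sample a together the difference was called in 204 genes.

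Point estimates were larger in the pair without anti-PD-1 for each of the genes given sample by sample above. S100a9 changed by -0.74 ± 0.44 with anti-PD-1 (adjusted p = 0.53) and by -2.22 ± 0.44 without it (adjusted p = 0.00235). Il1b changed by -0.83 ± 0.37 with anti-PD-1 (adjusted p = 0.365) and by -2.02 ± 0.37 without it (adjusted p = 0.00197). Ptprc changed by -0.52 ± 0.35 with anti-PD-1 (adjusted p = 0.542) and by -2.04 ± 0.35 without it (adjusted p = 0.00197). Over the neutrophil list the median was -0.69 with anti-PD-1 and -2.01 without it, and over the NF-kB list -0.77 with it and -1.73 without it. Over the pan-leukocyte list it was -0.53 with anti-PD-1 and -2.02 without it, beside -0.08 with it and -0.50 without it over all genes tested. Of the 357 genes tested, 243 had the same sign in both pairs.

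**Figure D4:**
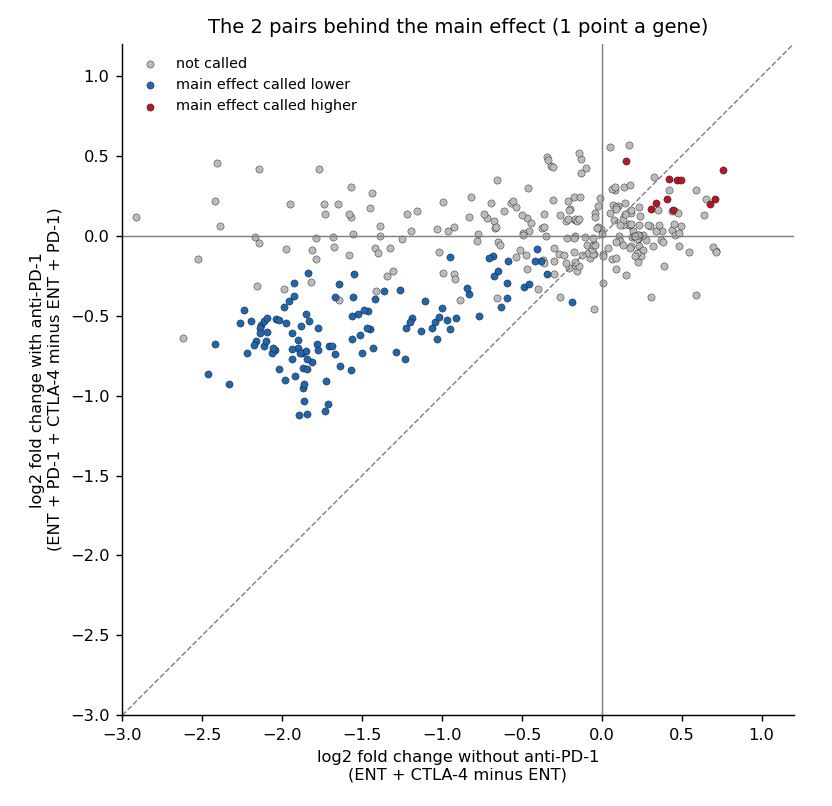
Log2 fold change of each of the 357 tested genes in the pair without anti-PD-1 (ENT + CTLA4 minus ENT, horizontal axis) and in the pair with it (ENT + PD1 + CTLA4 minus ENT + PD1, vertical axis), with a dashed line of equal change. Genes called for the main effect are blue (113 lower) and red (11 higher), and most blue points lie above the dashed line, where the pair without anti-PD-1 has the larger decrease.

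**Figure D5:**
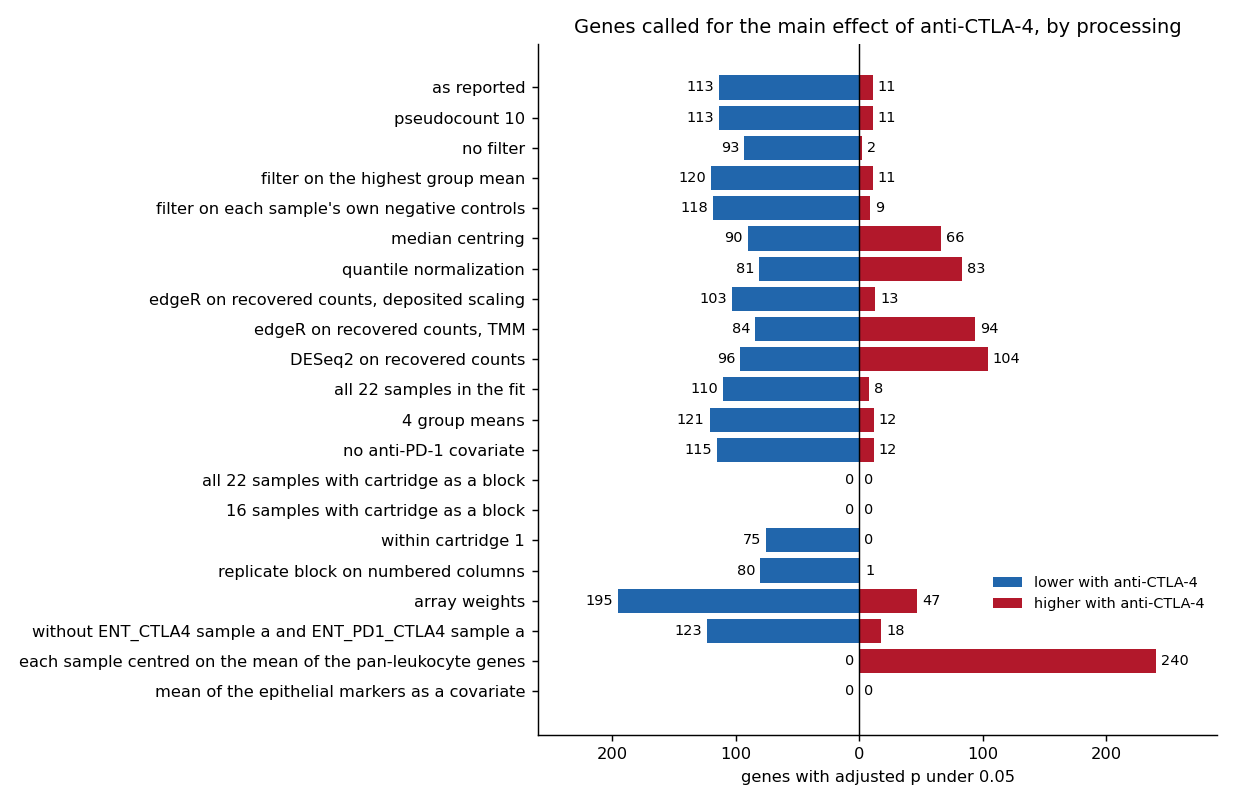
Number of genes called lower (blue, left) and higher (red, right) with anti-CTLA-4 in the analysis as reported and under each alternative. The 113 lower and 11 higher genes become 0 and 0 with the cartridge as a block. They become 0 and 240 when samples are centred on the pan-leukocyte genes. The bar within cartridge 1 rests on 1 sample with anti-CTLA-4.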

How the data were processed

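The deposited values are normalized counts of fluorescent barcodes, a signal on a linear scale with no value of a gene below 1. How the authors normalized them is not given in the sources used here. Of tools, the submitters' processing notes name only limma. The geometric mean of the housekeeping genes lay between 172 and 194 in all 22 samples. Values up to 200 were whole multiples, within 0.1 count, of 1 step per sample (100% of them), which gave back barcode counts for depth and for the count tests. The negative controls are raw counts in the deposited table and were multiplied by each sample's step.

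Groups come from the column names and sample titles. The log2(normalized count + 1) of the 16 entinostat samples was modelled in limma (version 3.58.1, R version 4.3.3) with terms for anti-CTLA-4 and anti-PD-1 (13 residual and 2.04 prior degrees of freedom). To be tested, a gene needed a mean log2 level over 2 SD above the mean of the negative controls, which comes to 35.3 normalized counts. P-values are two-sided with Benjamini-Hochberg adjustment, and the threshold is 0.05. Fits were tested on simulated data. Alternatives were another pseudocount (10) and other filters, other scalings, edgeR 4.0.16 (quasi-likelihood) and DESeq2 1.42.0 on the recovered counts, other sets of samples and covariates, the cartridge and the replicate number as blocks, array weights, and each sample left out. Replicates of a group always differed by more than counting error, the smallest chi-square being 2.48 per degree of freedom.

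The comparison and the gene lists were chosen with earlier results of these data known. The named genes are, of those called with the same sign in both pairs, the 10 that increased most and the 10 that decreased most, up to 3 members of each list with the smallest p, and a set of G-MDSC genes always named. Some genes that this rule names are given only in counts. Of the 655 gene symbols, 645 are in the RefSeq gene table, and the deposited symbols were kept.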

Additional observations from a re-analysis of the deposited data

Results flagged for a closer look

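In 29 of 240 comparisons within groups of 4 samples, a sample's gap to its nearest neighbour was, as a share of the group's range, above Dixon's 95% critical value. Chance alone would flag about 1 in 20 such groups, and the genes move together within a sample, so the flags are not independent. ENT + CTLA4 sample a gave 21 of the 29. It stood above the other 3 samples of its group in 20 genes: Hdc at 316 normalized counts, Fpr2 at 202, Acod1 at 483, Ell2 at 103, Ccl4 at 114, Ccl3 at 1109, Icosl at 93.1, Cd274 at 339.7, Vav1 at 236, Tlr6 at 62.0, Laptm5 at 733, Adgre1 at 96.0, Cdh5 at 79.8, Tgfb1 at 331, Cybb at 91.6, Il6 at 223, Nfkbia at 2377, Cxcl1 at 3486, Cxcl2 at 2880 and Cxcl3 at 87.2. It stood below them in Fzd6, at 115.

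In ENT + PD1 + CTLA4, sample a was low in Ptprc (446 normalized counts) and in Cxcl2 (1231), and sample 2, the sample of lowest depth, was high in Rab3d (137). Among samples without anti-CTLA-4, ENT sample 3 was high in Ell2 (201), ENT sample 4 was low in Ikzf1 (31.5), and ENT + PD1 sample 4 was high in Acod1 (489), Tlr13 (259) and Adgre1 (159).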

How the results depend on the processing

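Leaving out 1 sample at a time gave 97 to 153 genes called for the main effect, 92 to 133 lower and 5 to 20 higher, beside 124, 113 and 11 with all samples. The pair without anti-PD-1 then had 118 to 223 genes called, the pair with it 0 to 36, and the difference of the pairs 0 to 165, the highest of each without ENT + CTLA4 sample a. Without that sample and ENT + PD1 + CTLA4 sample a, 18 genes were higher and the difference was called in 204. Without a filter 2 genes were higher. Higher genes numbered 66 after median centring, 83 after quantile normalization, 94 in edgeR with TMM and 104 of 200 in DESeq2. With the cartridge as a block 0 genes were called, lower or higher, in the 16 and in all 22 samples, and within cartridge 1 the counts were 75 called, 75 lower and 0 higher. Array weights gave 242 called, 195 lower, 47 higher and 197 for the difference. Centring on the pan-leukocyte genes gave 240 called, 0 lower and 240 higher, and the epithelial covariate gave 0 called, 0 lower, 0 higher and 0 in the pair without anti-PD-1. The pan-leukocyte centring moves every gene's estimate up by the same amount. Otherwise the cause was not tested.

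The replicate numbers were not shown to pair the samples. Of 12 same-numbered pairs, 5 had correlated deviations over 0.1, and the range was -0.61 to 0.45. Differently numbered pairs were not compared, so these values cannot decide whether the numbers pair the samples. The replicate block on the 12 numbered columns gave 81 called, 1 higher and 133 for the difference, against 101 called, 6 higher and 206 for the difference in the same columns without the block.

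Some named genes changed sign. Stat3 stood at 0.11 in DESeq2, 0.094 in edgeR with TMM, 0.14 after median centring, 0.24 after quantile normalization and 0.031 within cartridge 1, and Nfkb1 at 0.15, 0.17, 0.23 and 0.25 in the first 4 of these. Quantile normalization put Hif1a at 0.078, Arg1 at 0.11 and Tgfb1 at 0.021, and all 22 samples with the cartridge block put Yap1 at -0.069. With the epithelial covariate Cd86 stood at 0.24, Cd274 at 0.23, Adgre1 at 0.46, Csf1r at 0.24, Cdh5 at 0.55, Cdh1 at -0.020, Arg1 at 0.14, Cybb at 0.58 and Nfkb1 at 0.18. Signs relative to the pan-leukocyte genes follow from that shift, and Laptm5 and Ptprc are part of the mean subtracted. On that scale Cxcr2 stood at 0.059, Csf3r 0.040, Ccl4 0.11, Ccl3 0.000915, Cebpb 0.56, Vegfa 0.73, Hif1a 0.87, Cd86 0.26, Cd274 0.29, Fcgr3 0.087, Fcgr4 0.35, Cxcr4 0.015, Ifngr1 0.85, Tlr6 0.20, Myd88 0.35, Laptm5 0.018, Ptprc 0.038, Adgre1 0.52, Csf1r 0.76, Cdh5 0.22, Arg1 0.93, Stat3 1.07, Tgfb1 0.90, Cybb 0.55, Nfkb1 1.16, Nfkbia 0.31, Cxcl1 0.55 and Cxcl3 0.0051. In ENT + PD1 + CTLA4 sample 2 genes near the limit of 35.3 normalized counts rest on few barcodes.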
